A study of Mus musculus with 7 samples.

Results

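Pancreatic islets adjust how much insulin they release through G protein-coupled receptors, and 10 of these receptor genes were examined here: Glp1r, Gipr, Gcgr and Gpr119, whose products couple mainly to Gs; Ffar1 and Chrm3, which couple mainly to Gq; and Adra2a, Sstr3, Galr1 and Cnr1, which couple to Gi/o. The list was drawn up by name, with earlier results of these data known, and members were found by matching Ensembl identifiers to symbols, so that each matched 1 of the 21899 genes in the count files. RNA-seq was performed on islets of second-generation (F2) male mice. Control-F2 males descended from C57BL/6J dams (F0) injected with vehicle, a mix of benzyl benzoate and corn oil, in late gestation, and AE-F2 males from dams that also received dihydrotestosterone, an androgen (prenatal androgen exposure, AE; the labels call this group hyperandrogenism). The F1 sons were not exposed again after birth and were bred with wild-type females, and the founders were wild-type and kept on standard chow. The age of the males used for RNA-seq and the number of animals per library are not given in the sources used here. Of 7 labelled samples, 3 control-F2 and 4 AE-F2, 2 were analysed here: control-F2 replicate 1 and AE-F2 replicate 4, called the control and the AE library below. With 1 library per group there was no replicate check, no difference between the groups could be tested, and every comparison below is between these 2 libraries.

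A β-cell secretes insulin when glucose metabolism closes its potassium channels and calcium enters, and the receptors change how strongly the granules respond to that calcium. Receptors coupled to Gs raise cyclic AMP, which acts through protein kinase A and EPAC2 to increase secretion. Receptors coupled to Gq activate phospholipase C and protein kinase C and also increase secretion, whereas receptors coupled to Gi/o lower cyclic AMP, open potassium channels and restrain it. Cnr1 encodes the cannabinoid receptor CB1, a Gi/o-coupled receptor for lipid ligands that cells make from their own membranes.

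The sequences just upstream of the transcription start are shown for Cnr1 and Gpr119, the receptors with more depth-scaled counts in the AE than in the control library. They come from RefSeq (GRCm38.p6) and are the 250 bases before the start, 5′ to 3′ on the strand of the gene. For Cnr1, which has several starts, the most upstream is shown (chr4:33924014-33924263, plus strand), and Gpr119 lies at chrX:48674479-48674728 on the minus strand. Capitals mark GGGCGG, the GC box, on either strand in Cnr1 and TGACG, the core of the cyclic AMP response element, in Gpr119.
Cnr1: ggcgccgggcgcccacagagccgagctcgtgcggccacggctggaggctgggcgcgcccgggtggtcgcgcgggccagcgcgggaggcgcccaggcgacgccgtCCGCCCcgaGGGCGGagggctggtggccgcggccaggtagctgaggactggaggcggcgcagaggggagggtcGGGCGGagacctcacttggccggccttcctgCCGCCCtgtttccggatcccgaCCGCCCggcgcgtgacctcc
Gpr119: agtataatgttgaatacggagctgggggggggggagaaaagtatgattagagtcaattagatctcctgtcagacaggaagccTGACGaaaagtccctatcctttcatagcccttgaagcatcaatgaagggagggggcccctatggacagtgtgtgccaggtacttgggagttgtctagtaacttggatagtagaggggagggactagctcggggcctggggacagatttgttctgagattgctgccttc
The windows differed in composition. The Cnr1 window had a GC content of 79.2%, 36 CpG dinucleotides and 5 GC boxes, against medians of 52.4% and 6 CpG over the 32851 windows of the same length in the table. The windows at the other Cnr1 starts held no GC box, with a GC content of 68.8% and 28 CpG dinucleotides in the middle one and 49.2% and 5 in the most downstream one. The Gpr119 window had a GC content of 50.4%, 3 CpG dinucleotides, no GC box and 1 TGACG. Letters like these are common, since 32.7% of all windows held GGGCGG and 17.8% held TGACG on either strand. For the members, 11 windows of 8 genes were found (Gipr and Galr1 were not in the table). GC boxes also stood in the windows of Glp1r (3), Gcgr (2) and Adra2a (1), and TGACG in those of Adra2a (1) and in 1 of Sstr3. None of them held the full cyclic AMP response element TGACGTCA, which 1.55% of all windows held, or the palindromic consensus of the androgen response element, which 0.00913% held. The Adra2a window had a GC content of 67.6%, 22 CpG dinucleotides and 1 TATAAA motif, which 12.4% of all windows held on either strand.

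The files gave estimated counts per gene that summed to 16285888 in the control library and to 21278513 in the AE library. Values are given below as counts, as counts per 1000000 after TMM scaling between libraries (CPM), and, wherever levels of different genes are compared, per kilobase of exon as well. A log2 ratio sets the AE value over the control value, and the interval in brackets is a 95% interval from the counts (Clopper-Pearson), which covers counting error only and leaves out the spread between animals. Of all genes, 13627 had a mean of at least 10 counts and were compared, with a median log2 ratio of 0.00. The libraries also differed in the markers of cells other than endocrine cells. The 6 B cell markers summed to 15.1 CPM in the control library and 371 CPM in the AE library, and the 10 acinar markers to 2033 and 1506 CPM.

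All 10 receptors were detected in both libraries and passed the minimum count. Their levels per length spanned a range from Glp1r to Cnr1. The Glp1r level was 119 CPM per kb in the control library and 111 in the AE library, and the Cnr1 level was 0.742 and 1.15. In the control library the order was Glp1r, Sstr3, Adra2a, Ffar1, Gipr, Galr1, Gcgr, Chrm3, Gpr119 and Cnr1, and no neighbours in it had overlapping counting intervals. In the AE library Ffar1 (37.7, interval 36.4 to 39) stood above Adra2a (34.5, interval 33.4 to 35.7), the other receptors kept their places, and Chrm3 (8.49, interval 8 to 9) overlapped Gpr119 (7.28, interval 6.54 to 8.08). With the length of the longest transcript in place of all merged exons, Gcgr, Chrm3 and Galr1 changed places among themselves. Together the 10 genes held 26908 counts in the control and 31946 in the AE library, or 1650 and 1503 CPM. Of these counts Glp1r took 41.8% (interval 41.2% to 42.4%) and 42.8% (interval 42.2% to 43.3%), Sstr3 20.3% and 21.1%, and Cnr1 0.29% (interval 0.229% to 0.362%) and 0.495% (interval 0.421% to 0.578%).

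**Figure D1:**
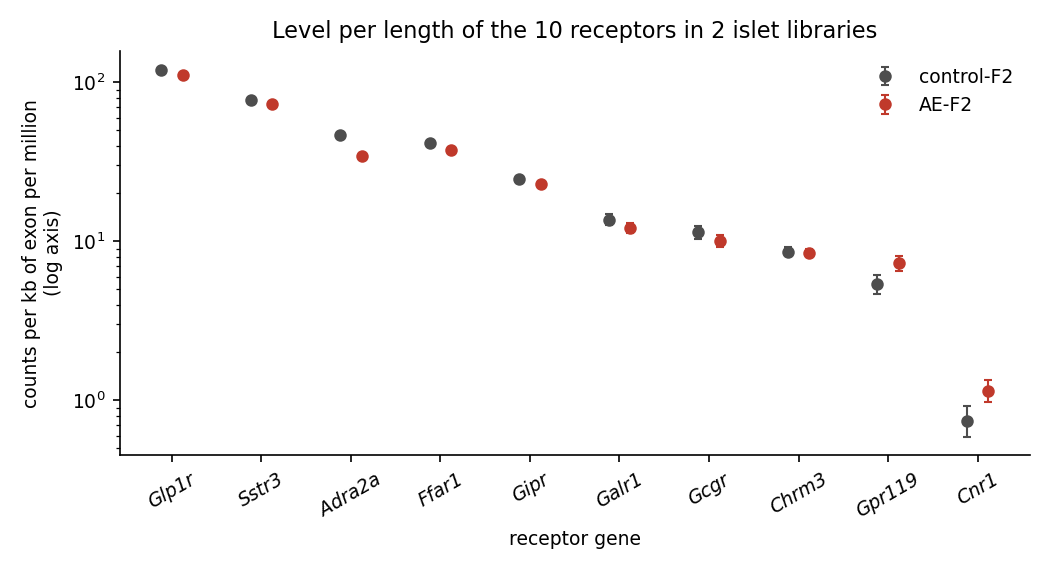
Level of each receptor in CPM per kilobase of merged exons (log axis) in the control and AE libraries, ordered by the control level. Points are single libraries and bars are 95% Poisson counting intervals. Glp1r is highest in both libraries (119 and 111) and Cnr1 lowest (0.742 and 1.15), and Adra2a falls below Ffar1 in the AE library.

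Of the 10 receptors, 8 were lower in the AE library and 2, Cnr1 and Gpr119, were higher. Scaled on the β-cell markers without Ins1, Ins2 and Iapp, a choice made after seeing the data, 6 were higher and 4 lower. The receptor median was then 0.02, beside 0.12 for all genes compared, and 1 interval in place of 6 lay below equality. On the β-cell markers without Ins1 and Ins2, with Iapp kept, 8 were lower. The receptor median was then -0.24, beside -0.14 for all genes compared. With TMM scaling the median log2 ratio was -0.10, and the ratios ran from -0.44 for Adra2a to 0.63 for Cnr1. None was 2-fold apart, where 3.81% of all genes compared were, 3.16% higher and 0.653% lower. Among genes of like abundance this share was 0.509% for a mean of 100 to under 1000 counts, where Gcgr, Gpr119, Cnr1 and Galr1 fell, and 0.346% for 1000 and over, where the other 6 fell. Only Cnr1 was past 1.5-fold, as 8.23% of all genes compared were. Counting intervals were above equality for 2 receptors (13.4% of all genes compared) and below for 6 (13.4%), and the interval included equality for Gipr and Chrm3. Among genes of 100 to under 1000 counts the interval lay above equality for 10.2% and below for 11.7%, set beside 2 above and 2 below among the 4 receptors of that range. For genes of 1000 and over these shares were 16.3% and 24.9%, and of the 6 receptors there 0 lay above and 4 below. Genes of that range had a median log2 ratio of -0.02, and 56.3% of them were below equality.

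**Figure D2:**
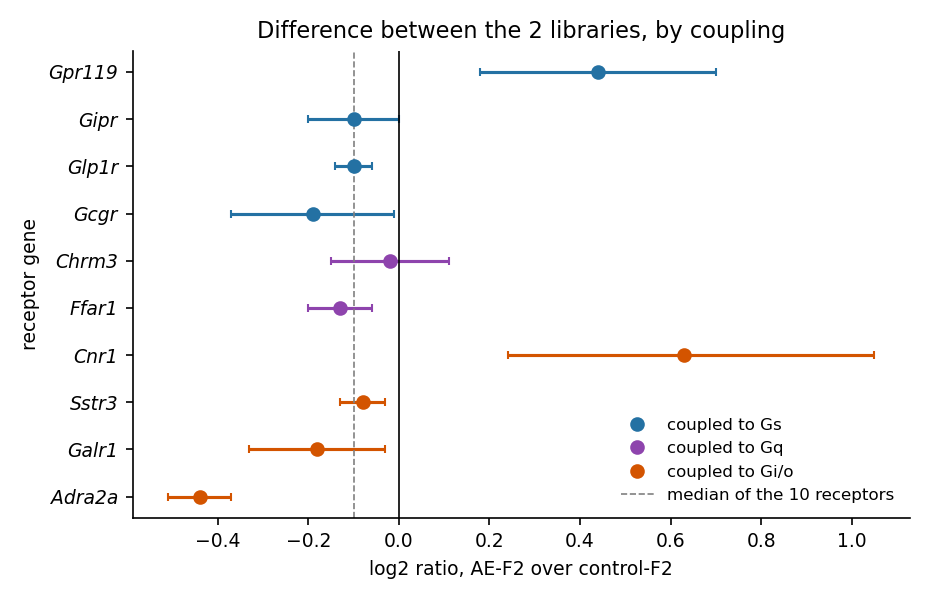
AE/control log2 ratio for each receptor, coloured by the G protein its product mainly couples to. Points are the ratios of 1 library to another, bars are 95% counting intervals, the solid line is equality and the dashed line the median of the 10 receptors (-0.10). Cnr1 (0.63) and Gpr119 (0.44) lie right of equality and Adra2a (-0.44) lies farthest left.

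The incretin and glucagon receptors showed small differences. Glp1r, on chromosome 17, encodes the receptor of glucagon-like peptide 1, a gut hormone that amplifies glucose-stimulated insulin release. It had 11239 counts (689 CPM) in the control library and 13670 (643 CPM) in the AE library, a log2 ratio of -0.10 [-0.14 to -0.06]. On the β-cell markers without Ins1, Ins2 and Iapp it turned to 0.02, where the median of all genes was 0.12. Gipr, on chromosome 7, encodes the receptor of the other incretin, glucose-dependent insulinotropic polypeptide. It had 1397 counts (85.7 CPM) and 1699 counts (80 CPM), with the same log2 ratio of -0.10 but an interval that reached equality [-0.20 to 0.00]. Gcgr, on chromosome 11, encodes the glucagon receptor, through which α-cells act on β-cells and which the liver also uses. Its 487 counts (29.9 CPM) and 557 counts (26.2 CPM) gave -0.19 [-0.37 to -0.01], an interval that included equality with upper quartile scaling. Among the genes of its range of counts, 28.1% lay at least as far from equality as Gcgr in either direction, and for Glp1r and Gipr these shares were 37.2% and 37.1%.

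Gpr119 went the other way from the rest of the Gs-coupled receptors. It lies on chromosome X, its longest transcript has 2 exons, and it encodes a receptor for oleoylethanolamide and related lipids that is found on β-cells and on hormone-secreting cells of the gut. It had 199 counts (12.2 CPM) in the control library and 351 (16.5 CPM) in the AE library. The AE library was 1.35-fold higher (interval 1.13 to 1.62), a log2 ratio of 0.44 [0.18 to 0.70], and 4.37% of genes in its range of counts lay at least as far from equality. The summed level of the 7 α-cell markers was also 1.34-fold higher in the AE library, from 17956 to 24119 CPM. This sum is mostly Gcg (16025 and 22009 CPM), and the other α-cell markers had log2 ratios between -0.04 and 0.19. The sum of the 9 β-cell markers, mostly Ins1 and Ins2, was 202133 and 202590 CPM, and 7 of these 9 had intervals below equality. In whole islets fewer cells of a type and less RNA per cell cannot be told apart, and the part that the α-cell share had in the Gpr119 value was not tested.

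The Gq-coupled receptors were close to equality. Ffar1, a gene with 1 exon on chromosome 7, encodes the long-chain fatty acid receptor GPR40 of β-cells. It had 2810 counts (172 CPM) in the control library and 3343 (157 CPM) in the AE library, a log2 ratio of -0.13 [-0.20 to -0.06]. Chrm3, on chromosome 13, encodes the muscarinic receptor through which acetylcholine from parasympathetic nerves raises secretion. It had 878 counts (53.8 CPM) and 1128 counts (53.1 CPM), and its ratio of -0.02 [-0.15 to 0.11] was the nearest of the 10 to equality. The counts allow a difference in Chrm3 of up to 1.08-fold higher or 0.902-fold in the other direction.

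Adra2a and Cnr1, both coupled to Gi/o, differed in opposite directions. Adra2a, a gene with 1 exon on chromosome 19, encodes the α2A-adrenoceptor through which adrenaline and sympathetic noradrenaline suppress insulin release. It had 3687 counts (226 CPM) in the control library and 3542 (167 CPM) in the AE library, so it was the only receptor with fewer counts in the deeper library. Its level was 0.737-fold (interval 0.704 to 0.772), a log2 ratio of -0.44 [-0.51 to -0.37], and 1.58% of genes with 1000 counts or more lay at least as far from equality. The acinar markers were lower by a like amount, with a median log2 ratio of -0.44 and a sum 0.741-fold, and all 9 that passed the minimum had intervals below equality, where 13.4% of all genes compared and 24.9% of those with 1000 counts or more did. What part acinar cells had in the Adra2a value was not tested.

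Cnr1, on chromosome 4, was the least abundant of the 10. Its product CB1 is best known from nerve endings, where it holds back transmitter release, and it has also been described in islet endocrine cells. It had 78 counts (4.78 CPM, interval 3.78 to 5.97) in the control library and 158 (7.44 CPM, interval 6.32 to 8.69) in the AE library. The AE library was 1.55-fold higher (interval 1.18 to 2.07), a log2 ratio of 0.63 [0.24 to 1.05]. This is a low level: the mean count of Cnr1 was at or above that of 25% of the genes compared, against 99.4% for Glp1r. Of genes with 100 to under 1000 counts, 1.58% lay at least as far from equality. The B cell markers (15.1 and 371 CPM), the 8 immune markers (157 and 252 CPM), the 7 mesenchymal markers (246 and 294 CPM, with a median log2 ratio of 0.96) and the 9 nerve and Schwann cell markers (36.7 and 39 CPM) had higher sums in the AE library too, and their part in the Cnr1 value was not tested.

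Sstr3 and Galr1, the remaining Gi/o-coupled receptors, were slightly lower. On the β-cell markers without Ins1, Ins2 and Iapp, however, Sstr3 turned to 0.04, where the median of all genes was 0.12. Sstr3, on chromosome 15, encodes a somatostatin receptor that receives the inhibitory signal of δ-cells, and its protein sits on the primary cilium of β-cells. It had 5466 counts (335 CPM) in the control library and 6731 (317 CPM) in the AE library, a log2 ratio of -0.08 [-0.13 to -0.03], and 46.2% of genes of its range lay at least as far from equality. Galr1, on chromosome 18, encodes a receptor for galanin, a peptide of islet nerves that inhibits insulin release. It had 667 counts (40.9 CPM) and 767 counts (36.1 CPM), a log2 ratio of -0.18 [-0.33 to -0.03].

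Summed by coupling, each class was lower in the AE library with TMM scaling. On the β-cell markers without Ins1, Ins2 and Iapp the Gs and Gq sums were at 0.03 [-0.01 to 0.06] and 0.02 [-0.05 to 0.08]. The Gi/o sum was at -0.08 [-0.12 to -0.05]. That scaling was chosen after seeing the data, and the median of all genes under it was 0.12. On the β-cell markers without Ins1 and Ins2, with Iapp kept, the Gs, Gq and Gi/o sums were at -0.23, -0.24 and -0.34. The 4 Gs-coupled receptors summed to 817 CPM in the control and 766 CPM in the AE library, a log2 ratio of -0.09 [-0.13 to -0.06], and this sum is mostly Glp1r. The 2 Gq-coupled receptors summed to 226 and 210 CPM, with -0.10 [-0.17 to -0.04]. The 4 Gi/o-coupled receptors summed to 607 and 527 CPM, with -0.20 [-0.24 to -0.16]. The ratio of Gi/o-coupled to all Gs- and Gq-coupled transcripts, by level per length, was 0.661 (interval 0.645 to 0.678) in the control library and 0.614 (interval 0.6 to 0.629) in the AE library. This difference rested on Adra2a. Without it the Gi/o sum was 381 and 360 CPM, with -0.08 [-0.13 to -0.03], and the ratio was 0.439 in both libraries. Cnr1 contributed little to these sums because of its low level.

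**Figure D3:**
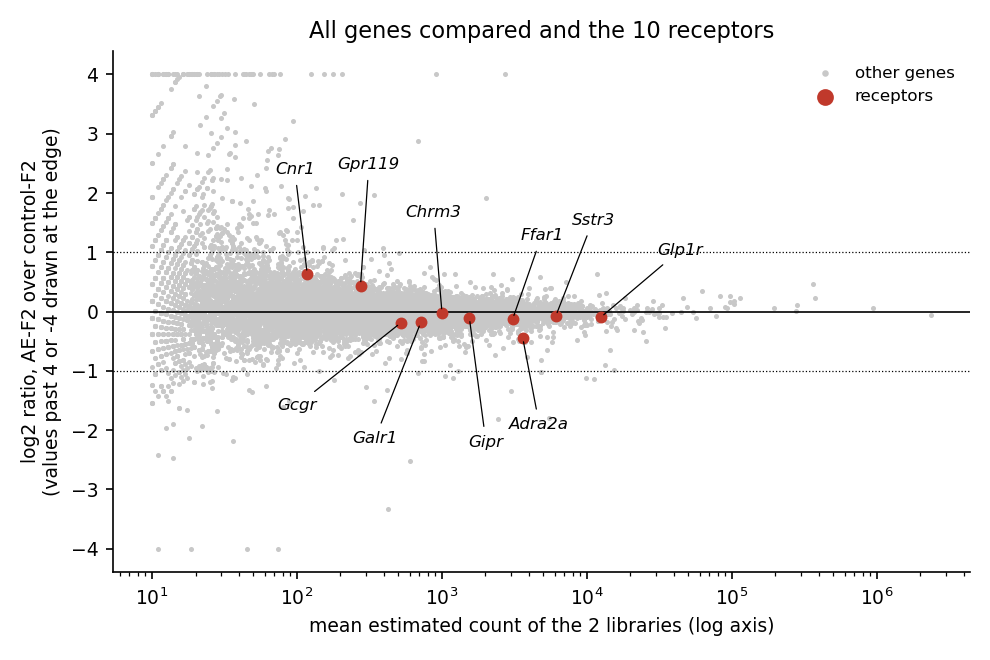
AE/control log2 ratio, plotted against the mean estimated count (log axis) for the 13627 genes compared, with the 10 receptors in red and 2-fold as dotted lines. Each point is a gene, with 1 library per group. All 10 receptors lie between the dotted lines, and Cnr1 and Adra2a lie at the outer part of the cloud at their abundance.

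Each receptor was then set beside its closest relatives, to see which gene of its family was most abundant, and relatives were named here after their values were seen. Adra2a held 99.9% of the level per length of the 3 α2-adrenoceptor genes in the control library and 99.8% in the AE library. Its relatives Adra2b and Adra2c had 1 count each in the control library and 3 each in the AE library. Sstr3 held 98.1% and 97.6% of the 5 somatostatin receptor genes. Its relative Sstr2 had 39 and 62 counts, and Sstr5 had 1 and 0.

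The other families were shared more evenly. Glp1r held 68% of the level per length of the 9 genes of the glucagon receptor family in the control library and 68.3% in the AE library. Vipr1, a receptor of vasoactive intestinal peptide (VIP), followed Gipr with 10.8% and 10.6%. Ffar1 held 69% and 66.9% among the 4 free fatty acid receptors, ahead of the short-chain fatty acid receptors Ffar2 (12.6% and 14%) and Ffar3 (10.4% and 11.3%). Chrm3 held 66.3% and 65.4% of the muscarinic receptors, and Chrm4, a Gi/o-coupled member, 23.9% and 25.7%. In the galanin family Galr1 and Galr3 were at the same level within counting error. Galr1 was at 13.7 CPM per kb (interval 12.7 to 14.8) and Galr3 at 13.3 (interval 11.8 to 15) in the control library, and at 12.1 (interval 11.2 to 13) and 12.6 (interval 11.3 to 14) in the AE library.

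The cannabinoid family was the one whose makeup differed most in these values. Cnr2, which encodes CB2, a receptor known mainly from B cells and other immune cells, had 3 counts in the control library and 31 in the AE library, a log2 ratio of 2.79 [1.31 to 5.34]. The share of Cnr1 in the summed level per length of both genes was 94.1% in the control library and 75.9% in the AE library. Gpr18 and Gpr55, which encode other lipid receptors with reported cannabinoid ligands, had 0 counts in the control library and 14 and 7 in the AE library. Both were under the minimum mean count. With 0 set to the floor of 3 counts they were 3.58-fold and 1.79-fold higher. The lower ends of their counting intervals were log2 ratios of 1.35 and 0.15. The B cell markers moved in the same direction, with Ighm at 51 and 5376 counts, Igkc at 9 and 1820 and Cd79a at 178 and 391. Their part in the values of Cnr2, Gpr18 and Gpr55 was not tested.

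Among all 30 sister receptors of the 10, 15 passed the minimum count. Of these 15, 6 were higher and 9 lower in the AE library, with a median log2 ratio of -0.07. Adcyap1r1, the receptor of the nerve peptide PACAP, was past 2-fold, with 36 and 97 counts and a log2 ratio of 1.04 [0.48 to 1.64]. Cnr2 was the other one past 2-fold, so that 2 of 15 were, beside 3.81% of all genes compared. Both were of low count, as were most genes past 2-fold. Of those 519 genes, 36 had a mean of 100 to under 1000 counts and 12 of 1000 and over. Adcyap1r1 was within 2-fold with a pseudocount of 5 (0.93) and when scaled on β-cell markers without Ins1 and Ins2 (0.90), and Cnr2 was at 1.79 with that pseudocount. Of 48 further islet receptors, 33 passed the minimum, 18 higher and 15 lower, with a median of 0.02. Those with the most counts, not scaled for length, were Adgrg1, Gpr158, Adgrl1 and P2ry1, with log2 ratios of 0.07, -0.07, -0.18 and -0.14. Of these 33, 3 were past 2-fold, all of low count. Mc5r, a melanocortin receptor, had 79 and 43 counts, with -1.25 [-1.83 to -0.71], and the prostaglandin receptor Ptger3 had 40 and 25, with -1.05 [-1.84 to -0.30] but within 2-fold with a pseudocount of 5 (-0.97) and on β-cell markers without Ins1, Ins2 and Iapp (-0.93). S1pr2, a receptor of sphingosine 1-phosphate, had 6 and 33, with 1.98 [0.80 to 3.62]. Among the receptors of both lists that passed the minimum, 3 had the ratios nearest to that of Cnr1 over the 2 libraries. They were P2ry12 (0.51 [0.09 to 0.95]), S1pr3 (0.88 [0.46 to 1.32]) and Adora2a (0.37 [-0.07 to 0.83]).

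The ligands of the receptors that islets make themselves were next. Of 22 genes for ligands and their processing, 15 passed the minimum, and 8 had intervals above and 4 below equality. Of all genes compared 13.4% were above and 13.4% below, and of those with 1000 counts or more 16.3% and 24.9%, since intervals are narrow for abundant genes such as these hormones. Gcg, the precursor of glucagon, which acts on Gcgr and more weakly on Glp1r, had 16025 CPM in the control library and 22009 CPM in the AE library, a log2 ratio of 0.46 [0.45 to 0.46]. Sst, the precursor of somatostatin, the ligand of Sstr3, was at 2887 and 2872 CPM, with -0.01 [-0.02 to 0.01]. The glucagon gene was thus higher in the library in which Gcgr was slightly lower, and Sst was near equality. Vip, a nerve peptide and the ligand of Vipr1, had 101 and 387 counts and was past 2-fold, with 1.55 [1.24 to 1.89]. Pcsk2, the convertase that cuts proglucagon to glucagon, had 0.06 [0.05 to 0.07]. Gip, the ligand of Gipr, which the gut makes, had 0 counts in both libraries.

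Genes downstream of the receptors had median log2 ratios of -0.04 (23 G protein subunit genes that passed the minimum) and -0.01 (27 effector genes). None was past 2-fold, where 3.81% of all genes compared were. The interval lay above equality for 2 and below for 6 of the subunit genes, and above for 1 and below for 4 of the effector genes. These counts stand beside 13.4% of all genes in each direction. Among genes of 1000 counts or more the shares were 16.3% above and 24.9% below. Gnas, which encodes the Gs α-subunit, was at 1355 CPM in the control and 1418 CPM in the AE library, with 0.07 [0.04 to 0.09]. The Gi/o α-subunits Gnao1 (540 and 488 CPM) and Gnai2 (399 and 375 CPM) had -0.15 [-0.19 to -0.10] and -0.09 [-0.13 to -0.04]. Of the effectors with the most counts, not scaled for length, Prkacb, a catalytic subunit of protein kinase A, had -0.17 [-0.20 to -0.14]. Prkar1a, its regulatory subunit, had 0.01 [-0.02 to 0.05], and Rapgef4, which encodes EPAC2, had -0.01 [-0.09 to 0.06].

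The desensitisation list holds receptor kinases, arrestins and Rgs regulators of G protein signalling, and also Ramp1, Ramp2 and Ramp3, which have other roles. Of its 23 genes that passed the minimum, 3 had intervals above and 6 below equality. Of all genes compared, 13.4% were above and 13.4% below. Their median was -0.08, and none was past 2-fold. Rgs2, a regulator that shortens signalling by Gq, had 4335 counts (266 CPM) in the control library and 3951 (186 CPM) in the AE library, with -0.52 [-0.58 to -0.45]. Rgs4 and Rgs16, which act on Gi/o and Gq, were lower as well, at 803 and 755 counts with -0.47 [-0.62 to -0.33] and at 993 and 953 counts with -0.44 [-0.57 to -0.31]. Not all Rgs genes were lower. Rgs5 had 2776 and 3835 counts, with 0.08 [0.01 to 0.16], and Rgs17 had 230 and 378, with 0.33 [0.09 to 0.58]. Arrb1, which encodes β-arrestin 1, was higher, with 111 and 235 counts and 0.70 [0.37 to 1.04]. Rgs4, Rgs16, Rgs17 and Arrb1 were singled out after their values were seen. The receptor kinases Grk2 and Grk3 were nearer to equality, with -0.08 [-0.17 to 0.02] and -0.13 [-0.21 to -0.05].

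**Figure D4:**
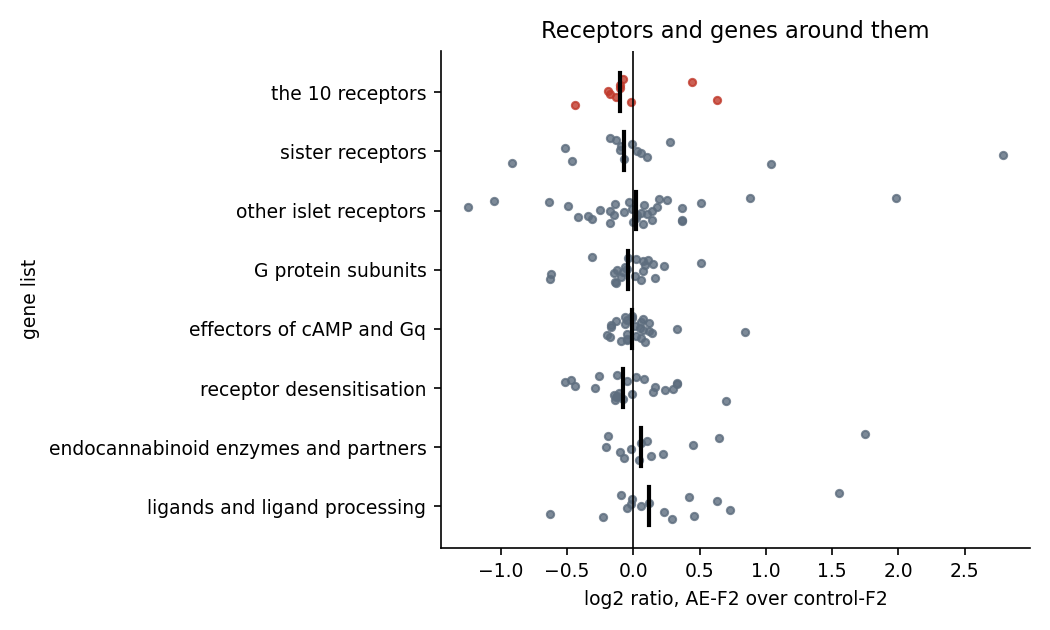
AE/control log2 ratio for the 10 receptors and for each list of related genes, limited to genes that pass the minimum count. Each point is a gene measured in 1 library per group and the black bar is the median of the list. Medians lie between -0.10 (the 10 receptors) and 0.12 (ligands and their processing), and the farthest point is Cnr2 at 2.79.

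The enzymes that make and break down the ligands of CB1 were close to equality, apart from a few. Of 14 endocannabinoid genes 13 passed the minimum, 8 higher and 5 lower, with a median log2 ratio of 0.06. The interval lay above equality for 2 of the 13 and below for 1, near or under the 13.4% of all genes compared in each direction. Dagla and Daglb, the lipases that make 2-arachidonoylglycerol, had -0.10 [-0.22 to 0.02] and -0.02 [-0.28 to 0.25]. Napepld, which makes anandamide and oleoylethanolamide, had -0.19 [-0.38 to 0.00]. Mgll, Abhd6 and Abhd12, which hydrolyse 2-arachidonoylglycerol, had 0.10 [-0.08 to 0.29], 0.13 [-0.06 to 0.32] and 0.04 [-0.08 to 0.17]. Faah, which breaks down anandamide and the Gpr119 ligand oleoylethanolamide, had 845 counts in the control library and 949 in the AE library and a log2 ratio of -0.21 [-0.35 to -0.08], the 1 interval below equality.

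Naaa and Ptgs2 were the genes of this list with intervals above equality. Naaa, a lysosomal amidase of the same lipids that macrophages express strongly, had 151 and 310 counts, with 0.65 [0.37 to 0.95]. Ptgs2, cyclooxygenase 2, had 9 and 41 counts, with 1.75 [0.74 to 3.03]. Of the 8 immune markers 6 passed the minimum, and 3 of them had intervals above equality (13.4% of all genes compared), Cd74 (2098 and 4024 counts) and Lyz2 (112 and 571 counts) among them. The intervals of the remaining markers that passed included equality. These were Csf1r, Adgre1 and Cd68, with 0.17 [-0.10 to 0.45], 0.02 [-0.53 to 0.58] and -0.11 [-0.69 to 0.49]. Adgre1 and Cd68 were named after their values were seen. The part of immune cells in the values of Naaa and Ptgs2 was not tested. Cnrip1, whose product binds the tail of CB1, had 0.22 [-0.12 to 0.56], and Gde1, Abhd4 and Fabp5 had 0.06 [-0.02 to 0.14], -0.07 [-0.23 to 0.10] and 0.45 [-0.22 to 1.17].

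The labelled tissue was checked against marker genes of its cell types. Ins2, Ins1, Gcg, Sst and Ppy, which define the endocrine cells, were abundant in both libraries. The median log2 ratio was -0.09 for 9 β-cell markers, 0.13 for 7 α-cell markers, 0.00 for 5 δ-cell markers and 0.05 for the PP cell markers. Of the 9 β-cell markers, all of 1000 counts or more, 7 had intervals below equality and 2 above, where 24.9% and 16.3% of the genes of that range did. Mesenchymal markers had a median of 0.96, immune markers 0.37, nerve and Schwann cell markers 0.34, duct markers 0.12 and endothelial markers -0.05.

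**Figure D5:**
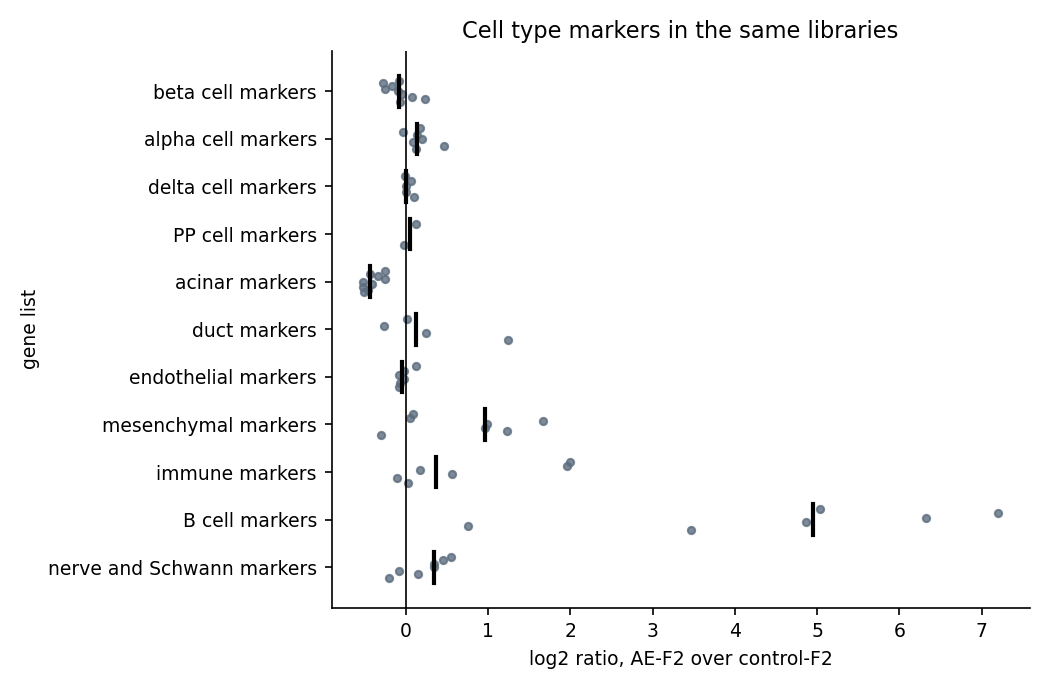
AE/control log2 ratio for the marker genes of each cell type that pass the minimum count. Each point is a gene measured in 1 library per group and the black bar is the median of the list. The endocrine lists lie near equality (medians -0.09 to 0.13), the acinar list lies below it (-0.44) and the B cell list lies farthest above it (4.95).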

How the data were processed

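Islet RNA was enriched with oligo(dT) beads, made into libraries with a kit that does not mark strand and sequenced on an Illumina instrument. The authors deposited estimated counts for each gene in a separate file for each library used here, not normalized. The study's methods name HISAT2 as aligner, whereas the submitters' processing notes name Bowtie2, RSEM and DESeq2. The build and annotation are not given in the sources used here. Of the values, 8.56% (control-F2) and 9.28% (AE-F2) were not whole, none of them of the 10 receptors. Files for 2 of the 7 samples were analysed here.

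Counts were rounded, and libraries were scaled by TMM with edgeR 4.0.16 in R 4.3.3 over genes averaging 10 or more counts. Ratios used a pseudocount of 0.5. Intervals (95%, scipy 1.17.1) cover counting error only, since PCR copies are not independent molecules. No p-value was computed, with 1 library per group. Symbols (21806 of 21899 genes), exon counts and merged exon lengths came from GENCODE M21, in which no exon of the 10 receptors overlaps another gene. The method was tested on simulated data. The receptors and gene lists were chosen with earlier results of these data known. Genes named from a list are its 4 with the most counts (3 for markers) and any past 2-fold with an interval off equality. Named too are all endocannabinoid genes above the minimum and the 3 receptors above the minimum nearest to Cnr1 in ratio. Of these genes, those that bear on the receptors are printed. Gip, Adgre1, Cd68 and the relatives within receptor families were named after their values were seen. Alternatives were other scalings with DESeq2 1.42.0 among them, a pseudocount of 5, unrounded counts, other minimum counts, a 1.5-fold threshold and other gene lengths.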

Additional observations from a re-analysis of the deposited data

How the results depend on the processing

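Each of the 10 ratios was recomputed under 8 other settings. Of these 80 values, 69 stayed within the counting interval of the reported ratio, and 11 moved outside it, 2 of which changed the sign of a ratio whose interval excluded equality. Total counts, DESeq2 size factors, the upper quartile, total counts without the 10 most abundant genes, a pseudocount of 5 and unrounded counts left 8 receptors lower and Cnr1 and Gpr119 higher. Of these, total counts put 9 intervals off equality (Gipr gained), and the upper quartile and leaving out the 10 most abundant genes put 7 (Gcgr lost). Scaling on β-cell markers mattered more. Without Ins1 and Ins2 it shifted the median of all genes to -0.14 and that of the receptors to -0.24, with all 10 intervals off equality. With Iapp also left out, an alternative chosen after seeing the data, G6pc2 had the most counts of the markers left (70003 and 86741). The median of all genes was then 0.12, the receptor median was 0.02 and 6 receptors were higher and 4 lower. Glp1r and Gipr turned to 0.02, Sstr3 to 0.04 and Chrm3 to 0.10, and 3 receptors instead of 8 had intervals off equality, namely 2 above and 1 below. Of the list genes with intervals off equality, under the former scaling Adgrg1, Gnas, Gng12 and Ins1 turned to -0.07, Rgs5 to -0.06, Pcsk2 to -0.08 and Pyy and Plvap to -0.02, and under the latter Gnai2 and Kdr turned to 0.03 and Ins2 to 0.07. List genes whose interval included equality could also change sign. At 1.5-fold instead of 2-fold, 1 receptor (Cnr1) was past the threshold. The log2 ratio of the Gi/o to Gs and Gq level was -0.11 for all 3 gene lengths and 0.00 without Adra2a, also chosen after seeing the data. No paired analysis was possible because 1 library of each group was analysed here, with different replicate numbers. For the same reason no replicate could be left out. Depth limits Cnr1 most, whose interval of 1.18 to 2.07 fold rests on 78 and 158 counts.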
